A study of Mus musculus with 6 samples.

Results

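The mouse mitochondrial genome carries 37 genes, chosen here as all genes whose symbol begins with mt-, out of the 48709 genes of the count table. They comprise 13 protein-coding genes, 2 ribosomal RNA (rRNA) genes and 22 transfer RNA (tRNA) genes, which are described as separate classes. The RNA came from mouse G1E-ER4 cells, red-cell precursors grown from embryonic stem cells. Their GATA-1 is tied to a hormone-binding part of the estradiol receptor, so that it acts once tamoxifen is given, and the cells then begin to mature. The 3 libraries labelled Control (CTRL) received a peptide of alanines linked to the cell-penetrating Tat sequence, and the 3 CHD4-APR libraries received YWLLAGII-Tat, which carries an aggregation-prone stretch of the chromatin remodeler CHD4. Each peptide was given at 10 μM for 2 h, and tamoxifen was then added for 28 h, so that both groups were tamoxifen-treated, and the sources give the tamoxifen concentration as 100 nM in one place and 100 μM in another. The comparison asks how the CHD4-APR peptide altered transcript levels in these cells. The labels do not say that the libraries of a group came from separate cultures, so the p-values measure only the spread between these libraries, and no sequencing batch is given.

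Mitochondrial DNA is transcribed from both strands as long RNAs that cover many genes. The tRNAs that lie between the coding genes are cut out by RNase P at the 5′ end and by Elac2 at the 3′ end, which frees the mRNAs and rRNAs. Most of the mRNAs then receive a poly(A) tail. The 13 proteins are subunits of complexes I, III, IV and V of the respiratory chain, whose other subunits are encoded in the nucleus, and the 2 rRNAs form the mitochondrial ribosome with nuclear-encoded proteins. Erythroid cells need mitochondria for heme synthesis as well as for respiration.

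The libraries were made by oligo-dT capture, so the ends of the transcripts bear on what was measured. Positions and sequences are from the GENCODE M21 transcripts on GRCm38, and are written 5′ to 3′ as DNA. Below are the last 30 bases of 3 mRNAs whose encoded stop codon is incomplete, and of 3 mRNAs that encode a whole one, with the bases of the stop codon in capitals. In the first 3 a lone T is encoded, and the added A bases of the poly(A) tail complete the codon.
mt-Co3: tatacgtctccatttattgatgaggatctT
mt-Nd4: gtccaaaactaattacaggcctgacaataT
mt-Cytb: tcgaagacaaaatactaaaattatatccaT
mt-Nd3: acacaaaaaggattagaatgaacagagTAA
mt-Nd4l: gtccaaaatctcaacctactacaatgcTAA
mt-Co1: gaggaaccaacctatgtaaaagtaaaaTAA

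The tRNAs are not known to carry the long tails of the mRNAs. The sequences of the 2 tRNAs with an FDR under 0.05, of which mt-Tq had 2 to 18 counts and entered the test only through its higher counts in the CHD4-APR group, are shown with the anticodon in capitals, mt-Ts1 (serine) at chrM:6870-6938 and mt-Tq (glutamine) at chrM:3772-3842, both on the minus strand.
mt-Ts1: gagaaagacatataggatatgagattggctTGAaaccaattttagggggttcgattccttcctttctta
mt-Tq: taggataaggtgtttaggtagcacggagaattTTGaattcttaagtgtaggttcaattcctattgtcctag

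The total counts lay between 41687482 and 49784177 per library. Of the 10 erythroid markers listed, none was at 0, and their summed level was 69558 to 74994 CPM scaled by edgeR's TMM method (normalized CPM, where CPM relates the counts of a gene to the library total) in the CTRL group and 58820 to 62881 in the CHD4-APR libraries. The 3 embryonic stem cell and the 3 fibroblast markers were at 0 in every library. The sums of the 5 myeloid and the 4 lymphoid markers stayed at or below 4.72 normalized CPM. That of the 4 megakaryocyte markers was 46.7 to 48.8 in the CTRL group and 39.9 to 45.7 in the CHD4-APR libraries, without overlap. Across the 12722 genes tested with edgeR's quasi-likelihood test and Benjamini-Hochberg adjustment (FDR), 38.3% had an FDR under 0.05, with 20.4% higher and 17.8% lower in the CHD4-APR libraries. When length and GC content were corrected for, 2601 higher and 2270 lower genes became 1478 and 2045.

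As a class, the mitochondrial mRNAs took a similar share of the counts in both groups. The 13 mRNAs held 3.68%, 3.71% and 3.52% of all counts in the CTRL group and 3.57%, 3.53% and 3.66% in the CHD4-APR libraries. These ranges overlapped, with means of 3.63% ± 0.104 (SD, n = 3) and 3.59% ± 0.0650 (SD, n = 3). The 2 rRNAs held 0.0432%, 0.0406% and 0.0394% in the CTRL group and 0.0466%, 0.0413% and 0.0422% in the CHD4-APR libraries, which also overlapped. The 22 tRNAs together held 0.00115% to 0.00119% in the CTRL group and 0.000997% to 0.00111% in the CHD4-APR libraries, without overlap, from sums of 418 to 574 counts per library. The difference was that of mt-Ts1, since the other 21 tRNAs held 0.000420%, 0.000416% and 0.000372% in the CTRL group and 0.000443%, 0.000429% and 0.000450% in the CHD4-APR group, higher in each, though they overlapped as normalized CPM. The hemoglobin genes, whose counts enter the denominator of these shares, held 6.19% ± 0.227 (SD, n = 3) of the counts in the CTRL group and 5.22% ± 0.190 (SD, n = 3) in the CHD4-APR group, without overlap. In bulk RNA, fewer cells of a type and less RNA per cell cannot be told apart.

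Within the class the mRNAs moved apart. Of the 13 mRNAs, 1 was higher (mt-Nd4l) and 5 were lower (mt-Nd3, mt-Nd6, mt-Co2, mt-Nd2 and mt-Cytb) in the CHD4-APR libraries at an FDR under 0.05, beside 20.4% higher and 17.8% lower among all genes tested, and 7 did not pass. The median log2 fold change of the 13 was -0.10, beside -0.012 for all genes tested. The groups did not overlap for 8 of the 13, beside 49.9% of all genes. With the correction for length and GC content the median of the 13 was -0.29, with 1 higher and 10 lower. Among all 12722 genes tested the median was then -0.024, with 1478 higher and 2045 lower. The size of the called changes moved with it, from 0.19 to 0.12 for mt-Nd4l, from -0.32 to -0.52 for mt-Nd3, from -0.29 to -0.49 for mt-Nd6, from -0.21 to -0.35 for mt-Co2, from -0.17 to -0.38 for mt-Nd2 and from -0.12 to -0.27 for mt-Cytb on the log2 scale.

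**Figure D1:**
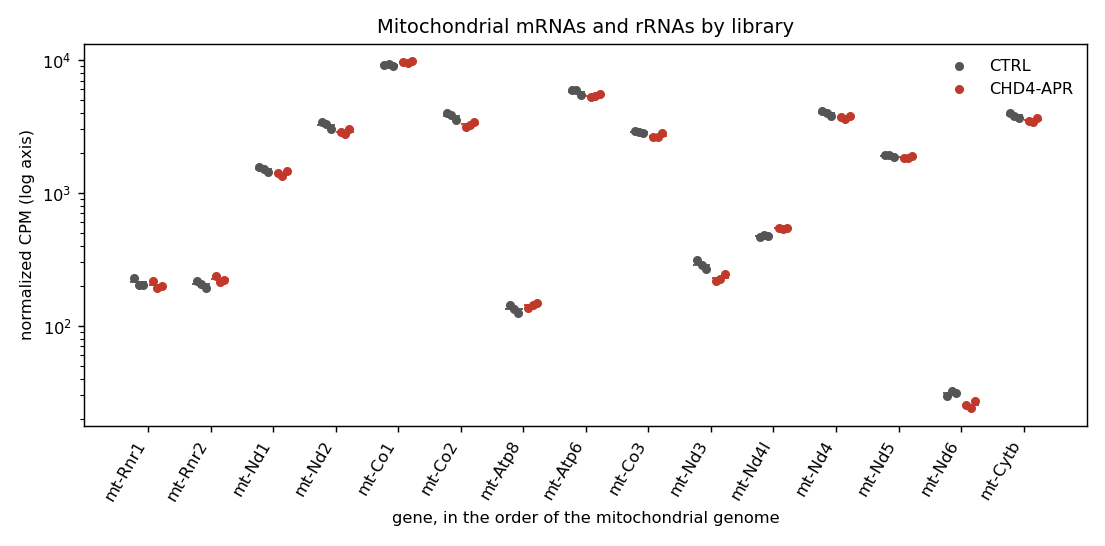
Normalized CPM (log axis) of the 13 mitochondrial mRNAs and 2 rRNAs in the order of the genome, 1 point per library, with a line at each group mean. mt-Co1 stood highest, between 8939 and 9766, and mt-Nd6 lowest among the mRNAs, between 24.0 and 32.4.

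Complex I, the NADH dehydrogenase at which most electrons enter the chain, holds 7 of the 13 products. Of these 7 mRNAs 1 was higher and 3 were lower, beside 20.4% higher and 17.8% lower among all genes tested. mt-Nd4l (chrM:9877-10173) encodes a small membrane subunit. It was at 464, 482 and 478 normalized CPM in the CTRL group and at 543, 533 and 546 in the CHD4-APR libraries. Every CHD4-APR library lay above every CTRL library, by 0.19 ± 0.040 (SE) on the log2 scale, with an FDR of 0.00161 by edgeR's quasi-likelihood test.

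mt-Nd3 (chrM:9459-9806), its neighbour upstream and another small membrane subunit, moved the other way. It was at 310, 287 and 266 normalized CPM in the CTRL group and at 217, 226 and 247 in the CHD4-APR libraries. All CHD4-APR values were below all CTRL values, with a log2 fold change of -0.32 ± 0.058 (SE) and an edgeR FDR of 0.000371. The ratio of mt-Nd4l to mt-Nd3 counts, which does not depend on scaling between libraries, was 1.49, 1.68 and 1.79 in the CTRL group and 2.50, 2.36 and 2.21 in the CHD4-APR libraries.

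mt-Nd6 (chrM:13552-14070) is the one mRNA encoded on the other strand, and is known as the exception that lacks a long poly(A) tail. It was at 29.8, 32.4 and 31.2 normalized CPM in the CTRL group and at 25.4, 24.0 and 27.2 in the CHD4-APR libraries. The groups did not overlap, with a log2 fold change of -0.29 ± 0.064 (SE) and an edgeR FDR of 0.00212. Its counts, 1026 to 1602 per library, were the smallest of the class. The library kit does not mark strand and the genes overlap by 14 bases, so reads of mt-Nd6 and RNA antisense to it cannot be told apart.

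mt-Nd2 (chrM:3914-4951), a membrane subunit of the proton pump, fell from 3400, 3282 and 3039 normalized CPM in the CTRL libraries to 2886, 2771 and 3011 in the CHD4-APR libraries. The lowest CTRL and the highest CHD4-APR library were close, and the log2 fold change was -0.17 ± 0.049 (SE) with an edgeR FDR of 0.0141. Without CHD4-APR replicate 2 it no longer passed, at a log2 fold change of -0.13.

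The other 3 complex I mRNAs did not pass. mt-Nd4 (chrM:10167-11544) was at 3993 ± 176 and 3714 ± 93.1 normalized CPM (SD, n = 3 each, CTRL first), with an edgeR FDR of 0.0782, although its groups did not overlap. mt-Nd1 (chrM:2751-3707) was at 1507 ± 67.6 and 1396 ± 64.4 (edgeR FDR of 0.0769). mt-Nd5 (chrM:11742-13565) was at 1904 ± 45.1 and 1856 ± 33.7 (edgeR FDR of 0.517). With the correction for length and GC content these 3 passed as lower. mt-Nd4 and mt-Nd1 also did so with upper quartile scaling (-0.12 and -0.13) and with no filter (-0.10 and -0.11). Without CTRL replicate 3 mt-Nd4 passed as lower too (-0.14).

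In complex III, mt-Cytb (chrM:14145-15288) encodes cytochrome b, the subunit that holds the quinone sites. It was at 3981, 3812 and 3678 normalized CPM in the CTRL group and at 3501, 3423 and 3637 in the CHD4-APR libraries. The groups did not overlap, but the log2 fold change of -0.12 ± 0.045 (SE) passed narrowly, with an edgeR FDR of 0.0458. It was lost when any of 5 of the 6 libraries was left out (all but CTRL replicate 3), with log2 fold changes from -0.090 to -0.15 over the 6, and also with the replicate block (edgeR FDR of 0.0718) and with 10 or more counts in every library (edgeR FDR of 0.0518).

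In complex IV, cytochrome c oxidase, the 3 catalytic core subunits are mitochondrial. mt-Co2 (chrM:7013-7696), which takes electrons from cytochrome c, was at 4014, 3829 and 3508 normalized CPM in the CTRL group and at 3157, 3219 and 3444 in the CHD4-APR libraries. The groups did not overlap, with a log2 fold change of -0.21 ± 0.052 (SE) and an edgeR FDR of 0.00472. mt-Co1 (chrM:5328-6872), which holds the oxygen-reducing site, was at 9181, 9297 and 8939 in the CTRL group and at 9626, 9565 and 9766 in the CHD4-APR libraries. All CHD4-APR values were above all CTRL values, yet the log2 fold change of 0.08 ± 0.042 (SE) had an edgeR FDR of 0.152, and it was -0.07 with the correction for length and GC content. mt-Co3 (chrM:8607-9390) was at 2867 ± 55.8 and 2691 ± 108 (SD, n = 3 each), with an edgeR FDR of 0.113, and passed as lower with the correction (log2 fold change -0.23).

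In complex V, the ATP synthase, mt-Atp8 (chrM:7766-7969) and mt-Atp6 (chrM:7927-8607) overlap by 43 bases on the genome and are translated from 1 mRNA. mt-Atp6, part of the proton channel, was at 5753 ± 272 and 5380 ± 128 normalized CPM (SD, n = 3 each, CTRL first), with an edgeR FDR of 0.109, and passed as lower with the correction for length and GC content (log2 fold change -0.30). mt-Atp8 was at 134 ± 8.81 and 144 ± 6.19, with a log2 fold change of 0.10 and an edgeR FDR of 0.154. The log2 fold change was -0.10 with the correction for length and GC content. Without CTRL replicate 1 mt-Atp8 passed as higher, at 0.15. The ratio of mt-Atp8 to mt-Atp6 counts was 0.0242, 0.0227 and 0.0231 in the CTRL group and 0.0260, 0.0270 and 0.0271 in the CHD4-APR libraries, without overlap. Reads that overlap both genes may have been dropped in the counting, and the part of this in the ratio was not tested.

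**Figure D2:**
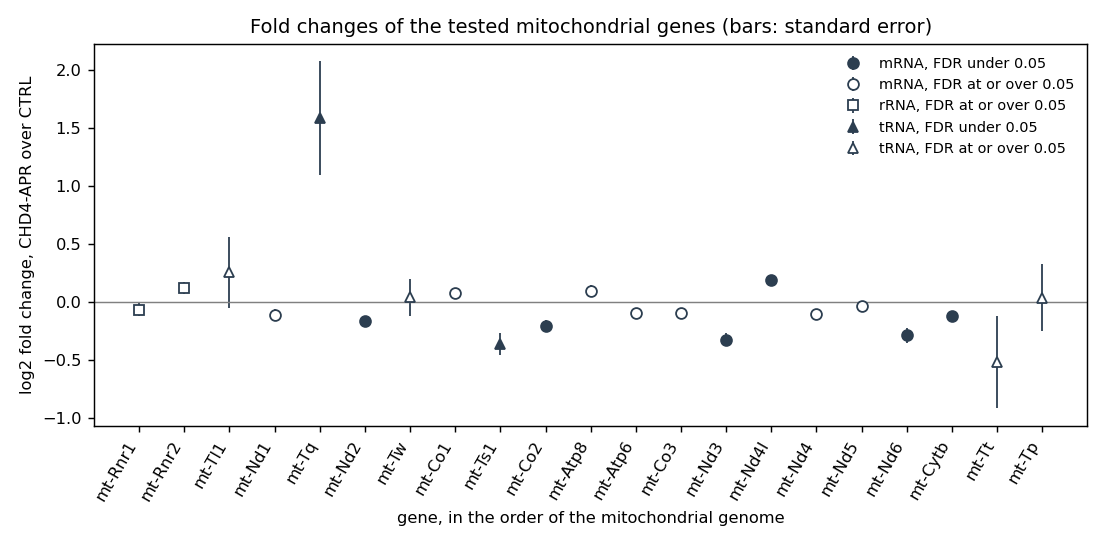
Log2 fold change, CHD4-APR over CTRL, of the 21 mitochondrial genes tested, in the order of the genome, with bars for the standard error. Filled symbols have an edgeR FDR under 0.05. mt-Nd4l lies at 0.19 and mt-Nd3 at -0.32, and mt-Tq, at 1.58, rests on 2 to 18 counts per library.

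Per kilobase the 13 mRNAs spanned a wide range although they are read from shared precursors. In the CTRL group mt-Atp6 had 8448 normalized CPM per kb, mt-Co1 5915, mt-Co2 5531 and mt-Co3 3657. mt-Nd5 had 1044, mt-Nd3 827 and mt-Atp8 658, and mt-Nd6 stood last. The order of the means was the same in the CHD4-APR group except that mt-Atp8 (704) stood above mt-Nd3 (661). Reads that overlap 2 genes may have been dropped in the counting, which would bear most on the short mt-Atp8.

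Expressed as a share of the 13, the values depend on no scaling between libraries, and the groups did not overlap for 10 of the 13 mRNAs, with 3 higher and 7 lower. No test was made on these shares. They sum to a fixed total, so a higher share of mt-Co1 by itself lowers the others, and the 7 cannot be read as separate changes. The log2 ratios of the 7 mean shares ran from -0.039 (mt-Nd4) to -0.26 (mt-Nd3). As normalized CPM the groups did not overlap for 8 of the 13, beside 49.9% of all genes. mt-Co1 held 24.2%, 24.9% and 25.2% of the class in the CTRL group and 27.5%, 27.6% and 26.9% in the CHD4-APR libraries. mt-Co2 held 10.6%, 10.2% and 9.91%, and then 9.02%, 9.29% and 9.48%. mt-Nd4l held 1.22%, 1.29% and 1.35%, and then 1.55%, 1.54% and 1.50%. The share of mt-Co1 was thus higher in every CHD4-APR library, and those of mt-Co2, mt-Nd2, mt-Cytb, mt-Nd4, mt-Nd1, mt-Nd3 and mt-Nd6 were lower in every one.

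**Figure D3:**
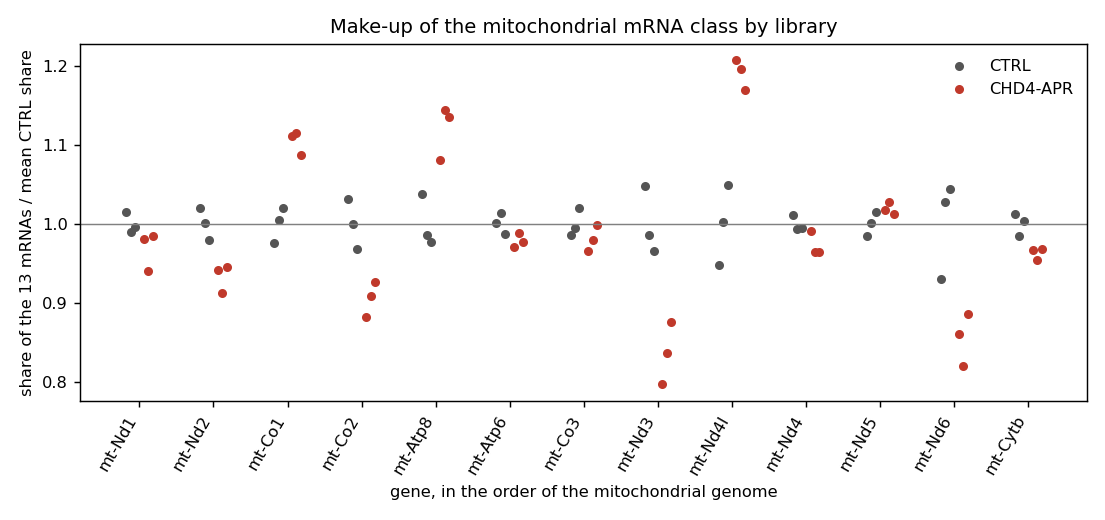
Share of each mRNA in the counts of the 13, divided by the mean share in the CTRL libraries, 1 point per library. mt-Co1, mt-Atp8 and mt-Nd4l lie above the CTRL points in all 3 CHD4-APR libraries, and 7 mRNAs lie below them.

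The nuclear genome holds copies of mitochondrial sequence, and 15 annotated pseudogenes matched a member at 90% identity or more over at least 80% of their length, of which 10 had 10 or more counts in a library. A block of 7 lies on the minus strand of chromosome 1, between 24611535 and 24616197. In the aligned bases it differs from the mitochondrial genes at 1 base in 2 of the 7 and at none in the others. Of Gm29216, which matches part of mt-Co1, 483 of the 492 bases were aligned. The windows below show both differences, in capitals, A1066T in mt-Co1 and T3C in mt-Nd3 (the mitochondrial base first, positions counted from base 1 of the mitochondrial transcript).
mt-Co1, bases 1063 to 1182: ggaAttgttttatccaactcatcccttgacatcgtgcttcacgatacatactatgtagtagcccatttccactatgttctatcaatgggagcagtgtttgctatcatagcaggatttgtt
Gm29216: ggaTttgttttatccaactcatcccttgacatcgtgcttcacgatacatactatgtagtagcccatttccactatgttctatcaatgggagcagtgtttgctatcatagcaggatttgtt
mt-Nd3, bases 1 to 120: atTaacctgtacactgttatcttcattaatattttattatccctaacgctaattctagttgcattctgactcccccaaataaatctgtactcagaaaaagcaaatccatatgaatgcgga
Gm28438: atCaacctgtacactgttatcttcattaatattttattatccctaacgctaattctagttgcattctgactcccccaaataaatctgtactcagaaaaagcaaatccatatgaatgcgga

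Of the 7 copies, 4 carried nearly the counts of the genes they match. Gm28661 had 100.07% to 100.11% of the counts of mt-Co2 in the 6 libraries, Gm28437 100.03% to 100.08% of those of mt-Co3, Gm10222 99.99% to 100.09% of those of mt-Nd4l, and Gm28438 100.1% to 100.4% of those of mt-Nd3. In CHD4-APR replicate 1, for example, mt-Co3 had 117210 counts and Gm28437 117301. Gm10925 had more counts than mt-Atp6, 123% to 127%. mt-Atp6 overlaps mt-Atp8 on the mitochondrial genome and none of the 10 copies matches mt-Atp8, and the part of this in the difference was not tested. The other 2, which match only part of a gene, had 35.9% to 45.4% of the counts of mt-Co1 (Gm29216) and 45.2% to 50.5% of those of mt-Nd4 (Gm28439). Reads of a gene and of its copy cannot be told apart in these counts, and the copies together held 1.89% to 2.05% of all counts. The 3 copies on chromosome 2, which differ at more bases, had at most 1660 counts (Gm13341, like mt-Co2), 102 (Gm13340, like mt-Co1) and 14 (Gm13339, like mt-Nd2). Gm13341 was lower with the CHD4-APR peptide, with a log2 fold change of -0.34 and an edgeR FDR of 0.0108, a call that was lost without CHD4-APR replicate 1 (-0.24) or CHD4-APR replicate 2 (-0.28), while Gm13340 (-0.07) and Gm13339 (-0.56) did not pass, with edgeR FDRs of 0.832 and 0.428.

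A pair of these copies covers only part of a gene, and so splits the reads of that gene by position. Gm29216 matches mt-Co1 from base 1063 to its end at base 1545, and Gm28439 matches mt-Nd4 from base 1 to base 876 of 1378. The rest of each gene was taken as its count minus that of the copy, a split chosen after the values were seen. It assumes that reads in the copied stretch were counted in both places, and reads across a boundary are not placed exactly. The value of the rest follows from those of the gene and the copy, so no test is given for it. The corrected values of the parts used the length and GC content of the whole gene, not of each part.

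In mt-Co1 the parts differed in direction. The bases before the copied stretch had 5008, 5314 and 5135 normalized CPM in the CTRL group and 6174, 6130 and 6111 in the CHD4-APR libraries. The groups did not overlap, and the log2 fold change was 0.25, or 0.11 with the correction for length and GC content. The copied stretch at the 3′ end had 4172, 3983 and 3804, and then 3452, 3435 and 3655, lower in every CHD4-APR library. Gm29216 as counted had a log2 fold change of -0.18 ± 0.046 (SE) and an edgeR FDR of 0.00543, and the stretch had -0.33 with the correction.

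In mt-Nd4 the lower values were those of the 3′ part. The bases after the copied stretch had 2278, 2153 and 1995 normalized CPM in the CTRL group and 1854, 1787 and 1901 in the CHD4-APR libraries, without overlap, with a log2 fold change of -0.21, or -0.45 with the correction. The copied stretch at the 5′ end had 1878, 1864 and 1811, and then 1893, 1822 and 1885. These overlapped, and Gm28439 as counted had a log2 fold change of 0.01 ± 0.041 (SE) and an edgeR FDR of 0.845, which became -0.22 for the stretch with the correction. mt-Nd4l, which lies just upstream on the same mRNA, was higher. The ratio of mt-Nd4l to mt-Nd4 counts was 0.112, 0.120 and 0.126 in the CTRL group and 0.145, 0.148 and 0.144 in the CHD4-APR libraries. Whether differences in coverage along the transcripts between the libraries bear on the other members was not tested.

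**Figure D4:**
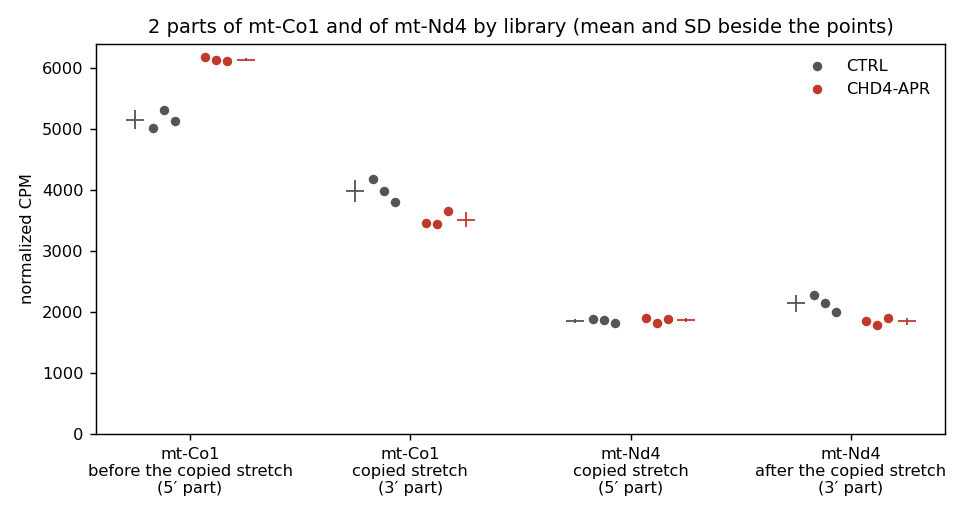
Normalized CPM of the 5′ and 3′ parts of mt-Co1 and mt-Nd4, 1 point per library, with the mean and SD beside them. The 5′ part of mt-Co1 lies above the CTRL points in all 3 CHD4-APR libraries, and the 3′ parts of both genes lie below them.

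Neither rRNA had an FDR under 0.05 in the test as run for the other genes, but both calls depended on the processing. mt-Rnr1, the 12S rRNA (chrM:70-1024), was at 229, 202 and 205 normalized CPM in the CTRL group and at 219, 191 and 198 in the CHD4-APR libraries, with a log2 fold change of -0.06 and an edgeR FDR of 0.402. With the correction for length and GC content it passed as lower, at -0.28 with an edgeR FDR of 0.00839. mt-Rnr2, the 16S rRNA (chrM:1094-2675), was at 217, 206 and 193, and then at 238, 214 and 221, with a log2 fold change of 0.12 ± 0.052 (SE) and an edgeR FDR of 0.0689. It passed as higher with no filter (edgeR FDR of 0.0341), with the replicate block (edgeR FDR of 0.0283) and without CTRL replicate 1 (edgeR FDR of 0.0114). With the correction for length and GC content it was at -0.12 and did not pass, and with the correction and block it passed as lower (-0.11, edgeR FDR of 0.0183). Both overlapped between the groups, but the ratio of mt-Rnr2 to mt-Rnr1 counts did not, at 0.948, 1.02 and 0.941 in the CTRL group and 1.08, 1.12 and 1.12 in the CHD4-APR libraries. rRNA levels after poly(A) capture are those of the rRNA that was carried through it, not of the cells' rRNA.

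Of the 22 tRNAs, 8 were at 0 in every library (mt-Tf, mt-Tv, mt-Ti, mt-Tg, mt-Tr, mt-Th, mt-Ts2 and mt-Tl2), another 8 had at most 9 counts in any library (mt-Tm, mt-Ta, mt-Tn, mt-Tc, mt-Ty, mt-Td, mt-Tk and mt-Te), and 6 passed the filter on low counts. A count of 0 allows up to 3 counts in a library. mt-Ts1 held most of the tRNA counts, with 339, 367 and 336 in the CTRL group and 276, 238 and 309 in the CHD4-APR libraries. On the normalized scale all CHD4-APR values lay below all CTRL values, with a log2 fold change of -0.36 ± 0.097 (SE) and an edgeR FDR of 0.00760. It overlaps the 3′ end of mt-Co1 by 3 bases on the opposite strand, so that reads from RNA that runs past mt-Co1 and reads of the tRNA cannot be told apart.

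mt-Tq had 6, 6 and 2 counts in the CTRL group and 12, 18 and 13 in the CHD4-APR libraries, a log2 fold change of 1.58 ± 0.49 (SE) with an edgeR FDR of 0.0177. It passed the filter on low counts only through the CHD4-APR group, where it is higher. With no filter its edgeR FDR was 0.0314, with 10 or more counts required in every library it was not tested, and DESeq2 gave it no adjusted p. The call was lost without CTRL replicate 3 (1.27) or CHD4-APR replicate 2 (1.35). The other 4 did not pass. mt-Tw (tryptophan) had 83 to 107 counts and mt-Tp (proline) 21 to 41. mt-Tl1 (leucine) had 17 to 29 and mt-Tt (threonine) 10 to 22.

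Among 93 nuclear genes of mitochondrial DNA and RNA metabolism, all of them tested, 9 were higher and 22 lower, with a median log2 fold change of -0.06. These 31 are 33.3% of the list, beside 38.3% of all genes tested. With the correction for length and GC content the split was 2 higher, Tfb2m and Pde12, and 25 lower. Among all 12722 genes tested it was then 1478 higher and 2045 lower. The count in the list was 19 without CHD4-APR replicate 2. Polrmt, the mitochondrial RNA polymerase, was at 21.1 ± 2.06 and 19.0 ± 1.36 normalized CPM (SD, n = 3 each, CTRL first), with an edgeR FDR of 0.164. Tfam, which binds the promoters and packages the DNA, was at 18.9 ± 1.30 and 21.1 ± 1.40, with an edgeR FDR of 0.0932. Of the 22 genes of transcription and replication, 2 were higher and 4 lower, 27.3% beside 38.3% of all genes. Tfb2m, the initiation factor that works with the polymerase, rose from 17.2 ± 0.304 to 21.6 ± 0.624 (log2 fold change 0.33, edgeR FDR of 0.000886), and by 0.20 with the correction. Mterf3 was higher (0.22) and Mrpl12 lower (-0.28), calls that were lost with the correction (0.01 and -0.10), and Mterf4 was lower (-0.23).

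Of the 26 genes of RNA processing and stability, 4 were higher and 7 lower, 42.3% beside 38.3% of all genes. Lrpprc and Slirp form the complex that holds polyadenylated mitochondrial mRNAs. Lrpprc was at 104, 111 and 109 normalized CPM in the CTRL group and at 114, 110 and 110 in the CHD4-APR libraries, with a log2 fold change of 0.04 and an edgeR FDR of 0.479. With the correction it turned to -0.12 and passed as lower (edgeR FDR of 0.0181). Slirp was at 83.8, 78.7 and 74.3, and then at 55.3, 63.1 and 64.6, without overlap, with a log2 fold change of -0.37 ± 0.061 (SE) and an edgeR FDR of 0.000206. Pde12, which removes A bases from mitochondrial RNAs, rose from 12.8 ± 0.725 to 18.1 ± 0.512 (log2 fold change 0.50, edgeR FDR of 5.76e-05), and by 0.23 with the correction. Trmt10c, a subunit of RNase P, was higher (0.27), a call lost with the correction (0.13), and Fastkd5, needed for the ends that no tRNA marks, fell (-0.26).

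Of the 24 genes of RNA modification, 2 were higher, Nsun3 (0.42) and Mettl15 (0.34), and 6 lower, led by Rpusd3 (-0.44) and Trmu (-0.35), 33.3% beside 38.3% of all genes. The calls of Nsun3 and Mettl15 were lost with the correction (0.15 and 0.24), while Rpusd3 and Trmu stayed lower (-0.27 and -0.26). Nsun3 and Trmu modify tRNAs and Mettl15 methylates the 12S rRNA. Of the 22 aminoacyl-tRNA synthetases and their partners, 1 was higher, Mars2 (0.47), and 5 lower, led by Lars2 (-0.53) and Gatc (-0.21), 27.3% beside 38.3% of all genes. The call of Mars2 was lost with the correction (0.067). Lars2 was at 415, 374 and 389 normalized CPM in the CTRL group and at 351, 213 and 252 in the CHD4-APR libraries, a wide spread in the CHD4-APR group.

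Most nuclear-encoded subunits were lower. Of 78 tested, 0 were higher and 70 lower, beside 17.8% lower among all genes, by edgeR's quasi-likelihood test, with a median log2 fold change of -0.26, beside -0.10 for the 13 mitochondrial mRNAs. The order of these medians turned with the correction for length and GC content, to -0.18 for the nuclear-encoded genes, 52 of them lower, and -0.29 for the mitochondrial mRNAs, 10 of them lower. Among all 12722 genes tested 2045 were then lower, with a median of -0.024. In complex I 33 of 36 were lower without the correction, led by Ndufs5 (-0.46) and Ndufa3 (-0.45), while 3 of 7 mitochondrial ones were. With the correction 21 of the 36 were lower, and so were all the mitochondrial ones but mt-Nd4l. In complex III 8 of 9 were lower, led by Uqcr11 (-0.41) and Uqcr10 (-0.35), and mt-Cytb, its 1 mitochondrial one, was lower too. With the correction 7 of the 9 were lower, with Uqcr11 at -0.19 and Uqcr10 at -0.17, and mt-Cytb stayed lower. In complex IV all 11 were lower, led by Cox6c (-0.36) and Cox5b (-0.31), against 1 of 3 mitochondrial ones. With the correction 8 of the 11 were lower, and so were mt-Co2 and mt-Co3. In complex V 15 of 18 were lower, led by Atp5k (-0.54) and Atp5e (-0.37), against 0 of 2. With the correction 14 of the 18 were lower, and so was mt-Atp6. The contrasts between the genomes were not tested. Complex II, which has no mitochondrial subunit, had 3 of 4 lower, among them Sdhb (-0.29) and Sdhd (-0.14). With the correction 2 of the 4 were lower, with Sdhb at -0.16, and the call of Sdhd was lost (-0.049).

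The balance of the genomes was also read from ratios of summed counts, without that correction and without a test. For complex I, the mitochondrial counts were 3.00, 3.13 and 2.97 times the nuclear ones in the CTRL group and 3.46, 3.29 and 3.31 times in the CHD4-APR libraries. For complex IV the ratio was 5.13, 5.63 and 5.39, and then 6.50, 6.41 and 6.35. For complex III it was 2.50 to 2.59 and 2.68 to 2.79, and for complex V 1.10 to 1.17 and 1.21 to 1.22. In all 4 complexes the ratio was higher in every CHD4-APR library than in any CTRL library. With counts corrected for length and GC content the ratio was lower in every CHD4-APR library for complexes I (3.20 to 3.55, then 2.96 to 3.18), III (2.66 to 2.85, then 2.47 to 2.65) and V (1.17 to 1.30, then 1.10 to 1.15), and it overlapped for complex IV, so its direction rests on this choice.

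**Figure D5:**
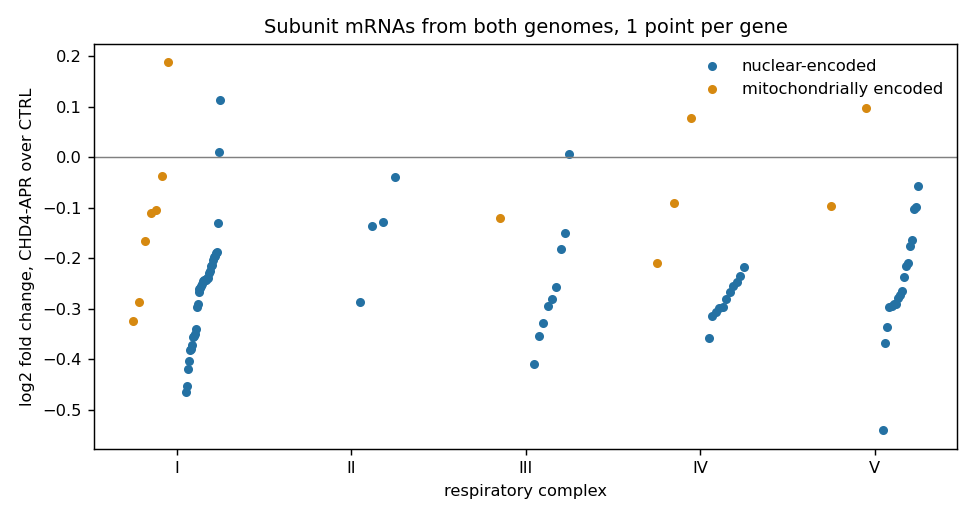
Log2 fold change, CHD4-APR over CTRL, of subunit mRNAs by respiratory complex, 1 point per gene, mitochondrially and nuclear-encoded apart. The nuclear-encoded genes have a median of -0.26 and the mitochondrial ones of -0.10, an order that turned with the correction for length and GC content (-0.18 and -0.29), which is not plotted.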

How the data were processed

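Poly(A) RNA of 6 libraries was sequenced with a kit that does not mark strand. The authors trimmed the reads with Cutadapt and mapped them to GRCm38 with STAR 2.7.10a. The deposited values are the authors' raw featureCounts counts for each Ensembl gene, without normalization. Whether reads that match several places or genes were counted is not given in the sources used here. The table has 2 further columns that belong to no sample of the labels, and these were left out.

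Genes were named with GENCODE M21, which held 48349 of the 48709 identifiers, and copies were found with blastn 2.17.0. Counts that passed filterByExpr were scaled by TMM and compared with edgeR 4.0.16 (quasi-likelihood test, no replicate block, Benjamini-Hochberg adjustment, FDR under 0.05) in R 4.3.3. Standard errors are the log2 fold change over the root of F. The fits by edgeR, DESeq2 and limma-voom were tried on simulated data, with log2 changes larger than those of the mRNAs called without the correction. The correction and the replicate block were not tried in this way. The correction for length and GC content was fitted on nuclear genes and applied to all. The 13 mRNAs had 31.9% to 41.1% GC, beside a median of 49.6% for the nuclear genes tested. The shortest had 204 bases, beside a median exonic length of 3695. Values beyond the range of nearly all nuclear genes were set to the edge of that range. Replicates differed by more than sampling noise.

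All 37 members are accounted for. From each nuclear list the text names up to 2 genes with the largest log2 fold change in each direction among those called, Polrmt, Tfam, Lrpprc and Slirp, and all copies with 10 or more counts. The members and lists were chosen with earlier results of these data known. Alternatives were DESeq2 1.42.0, limma-voom (limma 3.58.1), other scalings, filters and thresholds, the replicate block, the correction, added or removed copies, and leaving out each library. Counting intervals and floors cover counting error only.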

Additional observations from a re-analysis of the deposited data

How the results depend on the processing

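The count of mitochondrial mRNAs that passed was 6 with DESeq2, limma-voom and most other scalings. It was 11 with the correction for length and GC content and 11 with that correction and the replicate block, 8 with upper quartile scaling or no filter, 5 with the replicate block, 4 at an FDR under 0.01, and 4 to 8 when each library was left out. The rRNA count of 0 became 1 with no filter, 1 with the replicate block, 1 with the correction, 2 with the correction and the block, and 0 to 1 with a library left out. The 1 gene was mt-Rnr2, higher, with no filter, with the block and without CTRL replicate 1, and mt-Rnr1, lower, with the correction. The tRNA count of 2 became 1 with DESeq2, which gave mt-Tq no adjusted p, at 10 or more counts in every library and at an FDR under 0.01, and 1 to 2 with a library left out. The count for nuclear DNA and RNA metabolism was 31, then 16 at an FDR under 0.01 and 19 (without CHD4-APR replicate 2) to 34. That for nuclear-encoded subunits was 70, then 52 with the correction, 55 with the correction and block, and 64 to 69 with a library left out. The mRNA class changed by -0.02 (log2 ratio of mean shares) and by -0.065 as CPM scaled by TMM. Without the mRNAs that share sequence with a copy, 4 of the 5 remaining shares did not overlap, where it was 10 of 13.

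Directions turned with the correction, and with the correction and block, for mt-Rnr2 (-0.12 and -0.11), mt-Co1 (-0.067 and -0.067), mt-Atp8 (-0.10 and -0.090), mt-Tw (-0.042 and -0.044) and Gm28439 (-0.21 and -0.20). With a library left out they turned for mt-Tw (-0.036 to 0.14), mt-Tp (-0.11 to 0.25), Gm13340 (-0.23 to 0.21), Gm28439 (-0.0040 to 0.033) and the 5′ part of mt-Nd4 (-0.0040 to 0.029), and with upper quartile scaling for Gm28439 (-0.0046) and that part (-0.0041). The causes were not tested. With the correction that part had -0.22. The 5′ part of mt-Co1 and the 3′ parts of mt-Co1 and mt-Nd4 kept their directions in each of 10 alternatives, chosen after seeing the data, as were the table without the copies, the scaling without them, the share without them, the tRNA sum without mt-Ts1 and the corrected ratios.

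Whether replicate numbers pair the samples was not settled. The correlations of deviations were 0.12, 0.16 and -0.08 for the same numbers, and lay between -0.19 and 0.060 for different numbers. With the replicate block 5214 of all genes tested had an FDR under 0.05, beside 4871 without it. Among the tRNAs 16 had too few counts to be tested, and the parts of depth, poly(A) capture and the counting in this were not tested.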

Other observations

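Of 16 regulators of mitochondrial mass that were tested, from a list of 17, 3 were higher and 4 lower in the CHD4-APR libraries by edgeR's quasi-likelihood test, 43.8% beside 38.3% of all genes. Gabpa, the DNA-binding subunit of the nuclear respiratory factor 2 complex, was at 27.1 ± 1.47 (SD, n = 3) normalized CPM in the CTRL group and at 36.5 ± 1.08 (SD, n = 3) in the CHD4-APR group (log2 fold change 0.42, edgeR FDR of 5.06e-05), and its partner Gabpb1 rose too (0.20). Bnip3, a mitophagy receptor, had 53.6 ± 2.73 normalized CPM (SD, n = 3) in the CTRL group and fell to 32.7 ± 7.75 (SD, n = 3) (log2 fold change -0.71, edgeR FDR of 9.63e-05), and Esrra, a nuclear receptor of mitochondrial genes, fell as well (-0.28). The other 3 that passed, named here after their values were seen, were Bnip3l (0.19), another mitophagy receptor, which was higher, and the prohibitins Phb (-0.25) and Phb2 (-0.16), which were lower. With the correction for length and GC content Gabpa (0.18), Bnip3 and Esrra kept their calls, those of Gabpb1, Bnip3l, Phb and Phb2 were lost, and Nrf1 (-0.35) and Tomm20 (-0.16) passed as lower, which made 1 higher and 4 lower.

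Of the 10 erythroid markers 1 was higher, Tfrc (0.26), and 5 were lower, led by Hbb-bs (-0.33) and Hbb-bt (-0.32), beside 20.4% higher and 17.8% lower among all genes. With the correction 1 was higher and 2 lower. Hbb-bs and Hbb-bt (both -0.19) kept their calls, those of Tfrc (-0.023), Hba-a1 (-0.040), Hba-a2 (-0.021) and Klf1 (0.013) were lost, and Slc4a1 passed as higher (0.11). Nrf1, Tomm20, Hba-a1, Hba-a2, Klf1 and Slc4a1 were named after their values were seen. Of the 4 megakaryocyte markers 3 were tested and 1, Gp9, was lower (-0.31), a call lost with the correction (-0.099), while Pf4 (0.44) and Itga2b (-0.10) did not pass.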
